A study of Mus musculus with 3 samples.

Results

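The genes described here are the histone genes of the 4 mouse histone clusters, taken as every gene symbol that begins with Hist1h, Hist2h, Hist3h or Hist4h. There were 67 of them among the 22072 gene symbols measured: 6 H1, 18 H2A, 18 H2B, 12 H3 and 13 H4 genes. By cluster, 53 belonged to Hist1 on chromosome 13, 10 to Hist2 on chromosome 3, 3 to Hist3 on chromosome 11 and 1 to Hist4 on chromosome 6. RNA was sequenced from ScxGFP positive cells, sorted from hindlimbs of mouse embryos of mixed strain background. The reporter follows the gene for scleraxis, which marks the progenitors of tendon and ligament, and the labels name no other allele or treatment. A single library was made at each of E11.5 (18 hindlimbs pooled), E13.5 (12 hindlimbs) and E15.5 (11 hindlimbs). Differences between embryos or repeat libraries were therefore not measured, and no difference below was tested.

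Replication-dependent histone genes supply the core histones H2A, H2B, H3 and H4 and the linker histone H1 that package newly copied DNA, and they are transcribed mainly in S phase. They lie in clusters, mostly lack introns, and most of their mRNAs end in a conserved stem-loop in place of a poly(A) tail. The stem-loop is bound by the protein encoded by Slbp and takes part in the 3′ processing, export, translation and decay of the mRNA. In a growing limb bud their combined mRNA level is commonly read as a sign of how many cells are copying DNA. The cDNA kit used here primes from both oligo-dT and random primers, so transcripts with no poly(A) tail can be copied.

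The 3′ stem-loop is shown first because it is shared across the histone classes and because its stem differed between the H4 genes and the rest. The lines below give it for 4 members, read from GENCODE M21 transcripts on GRCm38, in the sense strand with 5 flanking bases on each side. Capitals mark the 6 bases of each side of the stem, and the 4 bases between them are the loop. The positions of the 16 stem-loop bases are chr13:21722506-21722521 (plus strand) for the H2B gene Hist1h2bm, chr13:23581950-23581965 (plus) for the H4 gene Hist1h4d, chr3:96262939-96262954 (minus) for Hist2h4 and chr13:21735437-21735452 (plus) for Hist1h4j.
Hist1h2bm: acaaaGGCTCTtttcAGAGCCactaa
Hist1h4d: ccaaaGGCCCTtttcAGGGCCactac
Hist2h4: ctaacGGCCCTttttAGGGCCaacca
Hist1h4j: ctaaaGGTCCTtttcAGGACCaccac
Of 65 members with a coding transcript in that annotation, 43 held such a stem-loop on the sense strand. The search asked for GG at the 5′ end, a loop beginning with TTT and a fully paired stem, and it returned 6 forms. Of the 22 members without one, 18 have an annotated transcript that stops within 60 bases of the stop codon. For these the annotation may not reach as far as a stem-loop would lie. The form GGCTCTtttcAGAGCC was in 25 members of the H1, H2A, H2B and H3 classes and in 4 of the other genes among 55341 annotated. The forms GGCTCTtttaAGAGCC, in 6 members, and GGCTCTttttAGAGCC, in 1, were also found outside H4. All 11 H4 genes with a stem-loop had another stem: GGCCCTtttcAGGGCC in 7, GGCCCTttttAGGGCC in 2 and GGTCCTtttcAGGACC in 2. Apart from the first of the 6, no form was in a gene outside the clusters.

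Levels are in FPKM, a read count scaled to transcript length and to the mapped fragments of the library, and were summed over the deposited transcripts of a gene. A mean of at least 1 FPKM over the 3 libraries was reached by 59 of the 67 members, and each of these was at or above 1 FPKM in every library. The 8 members below it included the testis-known genes Hist1h1t (0.22, 0.42 and 0.53 FPKM in stage order) and Hist1h2aa (under 0.1 FPKM at each stage). Hist1h2ao, Hist1h2ap, Hist2h2aa1 and Hist2h2aa2 were listed at 0 in every library. They form 2 pairs, 1 in Hist1 and 1 in Hist2, each of identical coding copies whose gene models overlap, and they are described here only as listed at 0. Hist1h4n and Hist2h3c1 passed the mean but carried an estimate status other than OK, so 57 members entered the comparisons between stages. The libraries held about 12200000 to 17100000 reads on the listed transcripts, of which about 26176 to 42812 fell on the members. Intervals below are approximate 95% Poisson intervals from such read numbers. They cover counting error only, and amplified cDNA is not a set of independent molecules.

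From the earliest stage to the latest, the summed level of the 67 genes was 2316 FPKM (interval 2292 to 2340), 1801 FPKM (1777 to 1825) and 1812 FPKM (1790 to 1834). The E11.5 library was the high one, and the other two lay within counting error of each other. As a share of all FPKM the members took 1.45%, 1.16% and 1.01%. The E11.5 library gave the highest value for 49 of the 57 compared members, the E13.5 library for 6 and the E15.5 library for 2. The same split over all genes is not given here, so these counts have no background beside them.

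Between E11.5 and E13.5, 49 of 57 members were lower at E13.5, beside 42.6% of all 10938 genes compared, and the other 8 were higher, beside 57.4%. The median difference in log2(FPKM + 1) was -0.38 for the members and 0.070 for all genes. Few members moved far: 1 of 57, Hist2h2bb, was at least 2-fold lower, beside 1.02% of all genes, and none was at least 2-fold higher, beside 6% of all genes. No test stands behind these counts, and the same libraries enter each pair of comparisons.

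Between E13.5 and E15.5 the members were spread around no change, with 33 of 57 lower at E15.5, beside 44.9% of all genes, 24 higher, beside 55.1%, and a median log2 difference of -0.041. At least 2-fold higher was 1 member, Hist2h2bb, beside 3.58% of all genes, and at least 2-fold lower was 1, Hist3h2ba, beside 0.713%. These H2B genes were singled out after their values were seen. Scaling the libraries to equal FPKM sums moved the median of all genes in this comparison from 0.036 to -0.13 and put 48 of 57 members lower. Relative to that median the members' median was -0.077 as deposited and -0.090 after the scaling, and 37 of 57 members lay below it in both.

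Between E11.5 and E15.5, 54 of 57 members were lower at E15.5, beside 44.4% of all genes, and 3 were higher, beside 55.6%. The median log2 difference was -0.37, beside 0.072 for all genes. On the log2(FPKM + 1) scale 1 member, the H3 gene Hist1h3e, was at least 2-fold lower, beside 2.14% of all genes, and none was at least 2-fold higher, beside 12.6%. With a pseudocount of 0.1 FPKM in place of 1, Hist1h2ac (4.70 to 2.25 FPKM) and Hist1h3f (7.19 to 3.24 FPKM) were past 2-fold as well, beside 3.94% of all genes lower. With libraries scaled to equal FPKM sums 5 members were at least 2-fold lower, beside 3.31% of all genes: Hist1h2ah, Hist1h2ai, Hist1h3e, Hist1h3f and Hist1h3g.

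**Figure D1:**
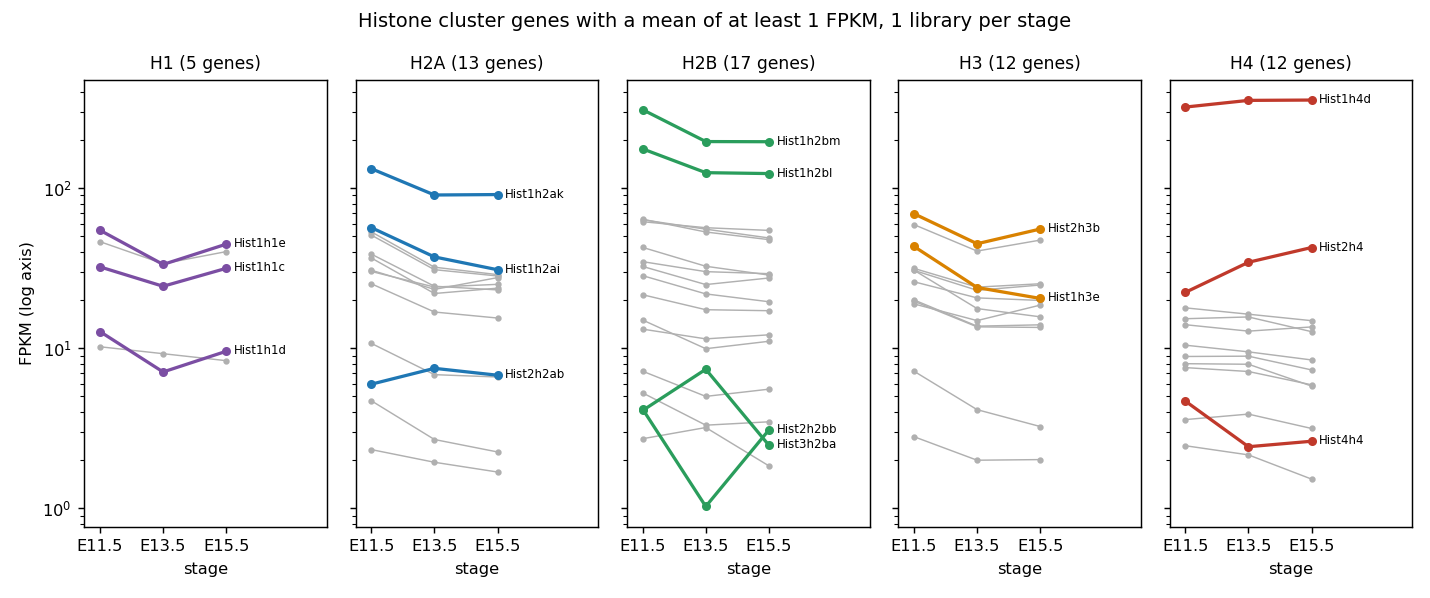
FPKM on a log axis (y) at each stage (x) for the 59 members with a mean of at least 1 FPKM, 1 panel per histone class and 1 line per gene, with coloured lines for genes described in the text. Most lines of H1, H2A, H2B and H3 step down from E11.5 to E13.5, while in H4 the top line, Hist1h4d, runs from 321 to 355 FPKM and Hist2h4 from 22.3 to 42.6.

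By class, H2A and H3 had the lowest medians at E13.5 and H4 a median near 0. From E11.5 to E13.5 the median log2 difference was -0.44 in H1 (5 of 5 lower), -0.58 in H2A (12 of 13) and -0.36 in H2B (15 of 17). It was -0.50 in H3 (11 of 11) and -0.010 in H4 (6 of 11 lower). Beside these counts, 42.6% of all genes were lower. Scaling to equal FPKM sums made the H4 median 0.023. Relative to all genes the H4 median was -0.081 as deposited and -0.078 after that scaling. From E13.5 to E15.5 the H1 median was 0.36, with 4 of 5 genes higher, beside 55.1% of all genes, and it was 0.16 after that scaling. The other classes were at -0.12 in H2A, -0.020 in H2B, 0.0086 in H3 and -0.15 in H4 in this step. The scaling put the H3 median at -0.16 along with the median of all genes at -0.13, and relative to all genes H3 was at -0.028 before it and -0.033 after. From E11.5 to E15.5 the median was -0.26 in H1 (5 of 5 lower), -0.62 in H2A (12 of 13) and -0.39 in H2B (17 of 17). In H3 it was -0.37 (11 of 11) and in H4 -0.25 (9 of 11), beside 44.4% of all genes lower.

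**Figure D2:**
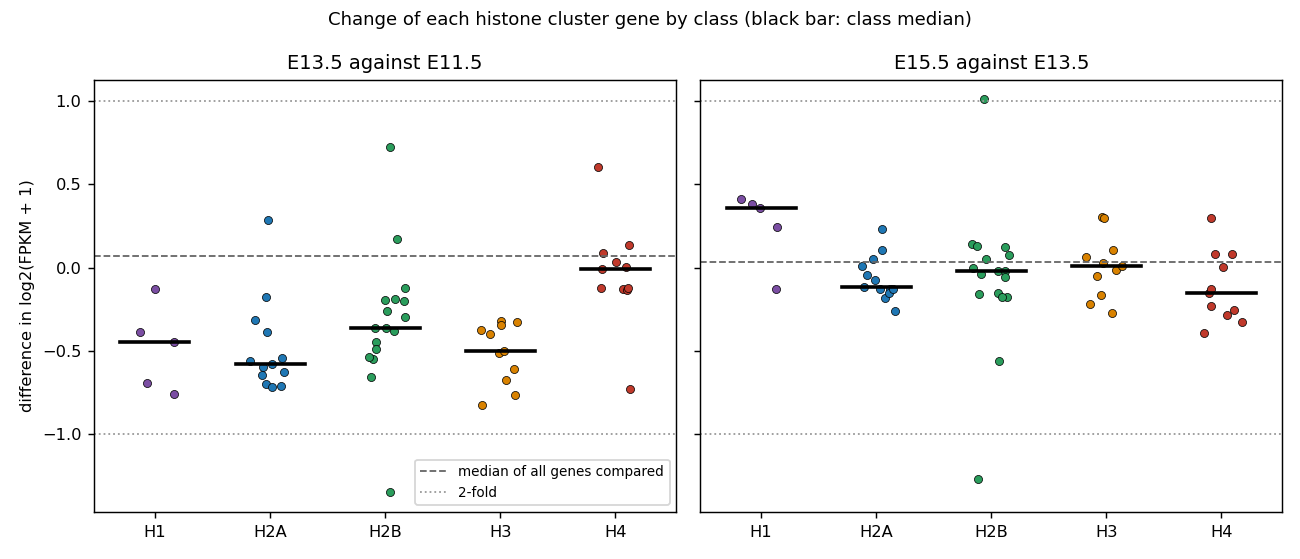
Difference in log2(FPKM + 1) (y) for each of the 57 compared members by class (x), from E11.5 to E13.5 on the left and from E13.5 to E15.5 on the right, with class medians as bars and the median of all genes as a dashed line. On the left the H2A and H3 medians, -0.58 and -0.50, lie well under the dashed line at 0.070 and H4 lies near it. On the right the H1 median, 0.36, is the farthest from the line at 0.036. Scaling to equal FPKM sums would move points and line together, the line to -0.13 and the H3 median from 0.0086 to -0.16.

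The H1 genes encode the linker histones, which bind the DNA between nucleosomes. Their sum was 156, 108 and 135 FPKM in stage order, with counting intervals of 152 to 160, 105 to 112 and 131 to 138 FPKM, so the E13.5 library was the low one and the E15.5 value lay between. Hist1h1e, the highest H1 gene, was at 54.5, 33.4 and 44.7 FPKM. Hist1h1b was at 46.3, 33.7 and 40.1 FPKM. Both dipped at E13.5, with no overlap of the counting intervals between stages for Hist1h1e (52.9 to 56.3, 31.9 to 34.9 and 43.1 to 46.3 FPKM). Hist1h1c was at 32.2, 24.4 and 31.6 FPKM, which left it with the smallest E11.5 to E15.5 difference of the class at -0.029 on the log2 scale. Hist1h1d had the largest, -0.37, with 12.7, 7.11 and 9.57 FPKM. Hist1h1a alone among the 5 did not turn back up, with 10.2, 9.25 and 8.36 FPKM. The models of Hist1h1e and of the H2B gene Hist1h2be overlap, so reads of the shared bases cannot be told apart.

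H2A pairs with H2B in the nucleosome. The H2A sum was 478 FPKM (467 to 489), 320 FPKM (311 to 330) and 312 FPKM (303 to 320) in stage order. Hist1h2ak, at 132, 90.6 and 91.2 FPKM, made up 27.6% of the H2A sum at E11.5. Hist1h2ai was next at 56.6, 37.2 and 30.9 FPKM. Hist1h2ah had the largest E11.5 to E15.5 difference, -0.86 on the log2 scale, with 53.3, 32.1 and 28.8 FPKM. All 3 were highest at E11.5 by more than counting error. Hist2h2ab was the 1 H2A gene with a higher value at E13.5, at 5.97, 7.49 and 6.78 FPKM, and its counting intervals overlapped between all stages (4.78 to 7.35, 6.03 to 9.20 and 5.51 to 8.27 FPKM). Of all 18 H2A genes, 9 encode a protein identical to that of Hist1h2ab; their sum was 229, 147 and 143 FPKM.

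H2B was the class with the highest sum, at 886 FPKM (871 to 901), 655 FPKM (640 to 669) and 631 FPKM (619 to 644) in stage order. Its highest genes were Hist1h2bm, at 309, 195 and 195 FPKM, and Hist1h2bl, at 176, 125 and 123 FPKM. Hist1h2bm was also the H2B gene with the largest E11.5 to E15.5 difference, -0.66 on the log2 scale. Without these genes the other 16 summed to 401, 334 and 313 FPKM. Hist1h2bc, at 13.2, 11.4 and 12.1 FPKM, had the smallest difference of the class, -0.11. Hist1h2ba, known from testis, was highest at E11.5 as well and stood at 9.94 and 11.1 FPKM at the later stages.

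The pair of H2B genes past 2-fold were low ones. Hist2h2bb was at 4.16 FPKM (3.29 to 5.20), 1.03 FPKM (0.58 to 1.68) and 3.09 FPKM (2.33 to 4.01). The E13.5 library alone was low. Hist3h2ba had the reverse order, at 4.09, 7.39 (6.22 to 8.72) and 2.48 FPKM (1.88 to 3.22), so the E13.5 library was its high one. In GENCODE the exons of Hist2h2bb overlap those of an antisense gene and a lincRNA, and no strand is stated for these libraries, so their reads cannot be told apart.

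H3 carries many of the lysines at which chromatin is marked. The H3 sum was 359 FPKM (350 to 368), 243 FPKM (235 to 251) and 260 FPKM (253 to 268) in stage order. Hist2h3b, the highest, was at 69.2, 44.9 and 55.5 FPKM. Hist2h3c1, whose status was not OK for every transcript, was at 59.2, 40.4 and 47.3 FPKM. Hist1h3a was at 18.9, 14.9 and 18.6 FPKM and ended near where it began, with a log2 difference of -0.024 from E11.5 to E15.5. Hist1h3e went the other way, at 43.2, 23.9 and 20.5 FPKM, a log2 difference of -1.04. The first 3 dipped at E13.5, whereas Hist1h3e was lower at each later stage. The E13.5 and E15.5 counting intervals overlapped for Hist1h3e (21.3 to 26.8 and 18.3 to 22.9 FPKM). They overlapped for Hist1h3a as well (13.1 to 16.9 and 16.7 to 20.6 FPKM).

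The H3 genes encode only 2 proteins. The 4 genes with the protein of Hist1h3a summed to 99.9, 69.2 and 72.6 FPKM, and the 7 with the protein of Hist1h3b to 256, 172 and 186 FPKM. Both groups were lower at E13.5 and stayed below their E11.5 level at E15.5. The stage orders of single H3 genes differed within a group: Hist1h3g, with the first protein, was at 30.7, 17.7 and 15.7 FPKM, unlike Hist1h3a. Its E13.5 and E15.5 counting intervals overlapped too (15.6 to 19.9 and 13.9 to 17.7 FPKM).

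H4 is encoded by 13 genes that specify 1 and the same protein. The H4 sum was 437 FPKM (425 to 449), 475 FPKM (461 to 488) and 474 FPKM (461 to 486) in stage order, a log2 difference of 0.12 from E11.5 to E15.5 that became -0.049 after scaling to equal FPKM sums. The scaling moved the median of all genes in the same comparison from 0.072 to -0.062. Hist1h4d was at 321 FPKM (311 to 331), 353 (341 to 365) and 355 (344 to 366), and was 73.4% of the H4 sum at E11.5. Hist2h4 was at 22.3 FPKM (19.8 to 25.1), 34.4 (31.0 to 38.1) and 42.6 (39.1 to 46.3), higher at each later stage with no overlap of the intervals. Its log2 difference of 0.90 from E11.5 to E15.5 was the largest increase among the members. Hist4h4, the 1 gene of its cluster, was at 4.68, 2.43 and 2.63 FPKM, the largest H4 decrease at -0.65.

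Without Hist1h4d the H4 genes summed to 116 FPKM (110 to 122), 122 (115 to 128) and 119 (113 to 125), with counting intervals that overlap. Without Hist2h4 as well they summed to 93.6 FPKM (88.2 to 99.1), 87.2 (81.3 to 93.0) and 76.4 (71.4 to 81.4), so the remaining 11 H4 genes were lowest at E15.5. The E11.5 to E15.5 log2 difference of that sum was -0.29. The sign of the H4 sum thus rested on Hist1h4d and Hist2h4.

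**Figure D3:**
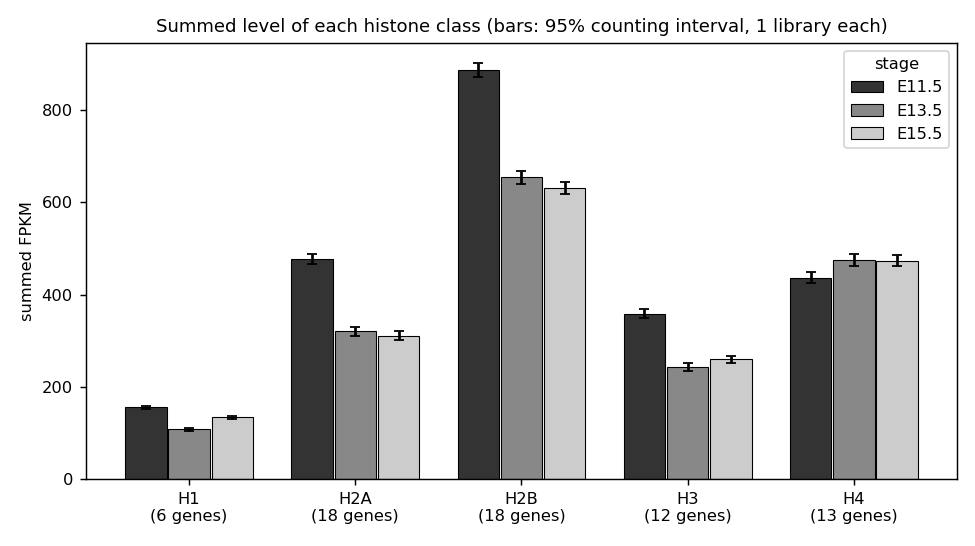
Summed FPKM (y) of each histone class (x) at the 3 stages, with approximate 95% counting intervals as error bars. H2A, H2B and H3 are highest at E11.5, H1 dips at E13.5, and H4 goes from 437 to 474 FPKM. The H4 difference changes sign when libraries are scaled to equal FPKM sums, which lowers the median of all genes too. It also changes sign when Hist1h4d and Hist2h4 are left out.

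The start of the coding sequence is printed for 4 H4 genes to show how far their reads can be told apart although the protein is the same. The lines give the first 75 coding bases from GENCODE M21 on GRCm38, with capitals where a base differs from Hist1h4d. They lie at chr13:23581602-23581676 (plus strand) for Hist1h4d, chr3:96263230-96263304 (minus) for Hist2h4, chr13:21735096-21735170 (plus) for Hist1h4j and chr6:136804305-136804379 (minus) for Hist4h4.
Hist1h4d: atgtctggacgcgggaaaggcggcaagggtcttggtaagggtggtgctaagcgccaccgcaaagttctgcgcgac
Hist2h4: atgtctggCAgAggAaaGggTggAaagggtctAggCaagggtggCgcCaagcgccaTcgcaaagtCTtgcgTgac
Hist1h4j: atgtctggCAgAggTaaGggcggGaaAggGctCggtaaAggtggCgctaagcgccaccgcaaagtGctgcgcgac
Hist4h4: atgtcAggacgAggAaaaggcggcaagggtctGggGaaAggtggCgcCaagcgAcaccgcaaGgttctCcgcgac
In this stretch Hist2h4 differed from Hist1h4d at 15 bases, Hist1h4j at 12 and Hist4h4 at 11. Over the 309 coding bases Hist2h4 was 90.0% identical to Hist1h4d. Of the windows of 43 bases, about 1 read, along the coding part, 8.61% in Hist2h4, 49.4% in Hist1h4d and 0% in Hist4h4 also occurred in another annotated gene.

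Shared sequence was common across the members. The share of such windows that also occurred in another annotated gene had a median of 80.4% over the 65 members with a coding transcript. Class medians ran from 12.4% in H1 to 93.1% in H2A. Genes annotated over the same bases count here, so a shared window need not lie elsewhere in the genome. In Hist2h2bb 100% of windows were shared, but 0.60% with another member, and in Hist3h2a 100% and 14.1%. Exons of both overlap those of genes outside the clusters. From E11.5 to E13.5 the median log2 difference was -0.38 over the 45 compared members with at least 50% of windows shared. It was -0.47 over the 6 with 10% to under 50% shared, and -0.13 over the 5 with under 10% shared. In these groups 41 of 45, 4 of 6 and 3 of 5 members were lower, beside 42.6% of all genes. The 5 with the least shared sequence ranged from -0.73 to 0.60. The compared pseudogene Hist2h3c2-ps has no coding transcript and is in none of the groups. How the deposited estimates divided shared reads is not given in the sources used here, so levels of single H2A, H2B, H3 and most H4 genes are uncertain.

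The members are short. The model held nothing but the coding part and stop codon in 30 of the 65, so reads from untranslated ends were not counted for these. Models of the H2B genes Hist1h2bc, Hist1h2be, Hist1h2bp and Hist1h2bq span more of the chromosome than their length, so they hold introns. The 41 compared members with models under 600 bases had a median log2 difference of -0.38 from E11.5 to E13.5. The 6 of 600 to under 1000 bases had -0.24 and the 10 of at least 1000 bases had -0.49, and the median was below 0 in each length group. Exons of 24 members overlap those of a gene outside the clusters in GENCODE, on the opposite strand for 21, mostly small annotated RNAs within H2A genes. The overlap is on the same strand for 7, among them Hist1h1e, Hist1h2ac, Hist2h3c1 and Hist3h2a. Hist2h3b, the highest H3 gene, overlaps the same antisense gene as Hist2h2bb.

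By cluster, the Hist1 genes summed to 2108, 1631 and 1620 FPKM, and the Hist2 genes to 196, 158 and 184 FPKM. From E11.5 to E13.5, 43 of 47 compared Hist1 genes were lower (median log2 difference -0.39) and 4 of 7 Hist2 genes (-0.31), beside 42.6% of all genes. The Hist3 genes summed to 6.97, 10.4 and 4.80 FPKM, with most of the E13.5 value from Hist3h2ba. Within Hist1, the genes lie in groups at least 100000 bases apart on mm9, of which 3 held more than 2 members. The group at chr13:21807632-21929399 had a median difference of -0.49 over 13 compared genes, chr13:22127035-22135479 had -0.38 over 5, and chr13:23622913-23856283 had -0.37 over 28. Neighbours on the chromosome could still differ: Hist1h4d, with a difference of 0.14, lies at chr13:23673471-23673782 next to Hist1h3d (-0.51) and Hist1h2be (-0.45).

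H2A and H2B genes often lie side by side, with divergent promoters, and their products are used together. There were 12 pairs of nearby H2A and H2B genes, with gaps of 172 to 812 bases. Hist2h2ab and Hist2h2be have Hist2h2ac between them. In 10 of the 12 the H2A gene lay below the H2B gene in the difference from E11.5 to E13.5. The classes as a whole had this order too, with medians of -0.58 in H2A and -0.36 in H2B. H2A and H2B genes that lie apart were not compared, so the count cannot show a trait of nearby pairs. Hist1h2ak went from 132 to 90.6 FPKM, while Hist1h2bn beside it went from 61.7 to 56.6. Hist1h2ad went from 50.9 to 31.0 FPKM, while Hist1h2bf went from 63.5 to 55.4. The exceptions were Hist1h2aa, near 0, with Hist1h2ba, and Hist2h2ab with Hist2h2be. The 10 include Hist3h2a with the pseudogene Hist3h2bb-ps, which had a mean under 1 FPKM. Among the 10 pairs with both genes compared, the H2A gene lay below in 9. These pairs are a description, since a pair shares its libraries with the others and Hist2h2be stands in 2 of them.

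**Figure D4:**
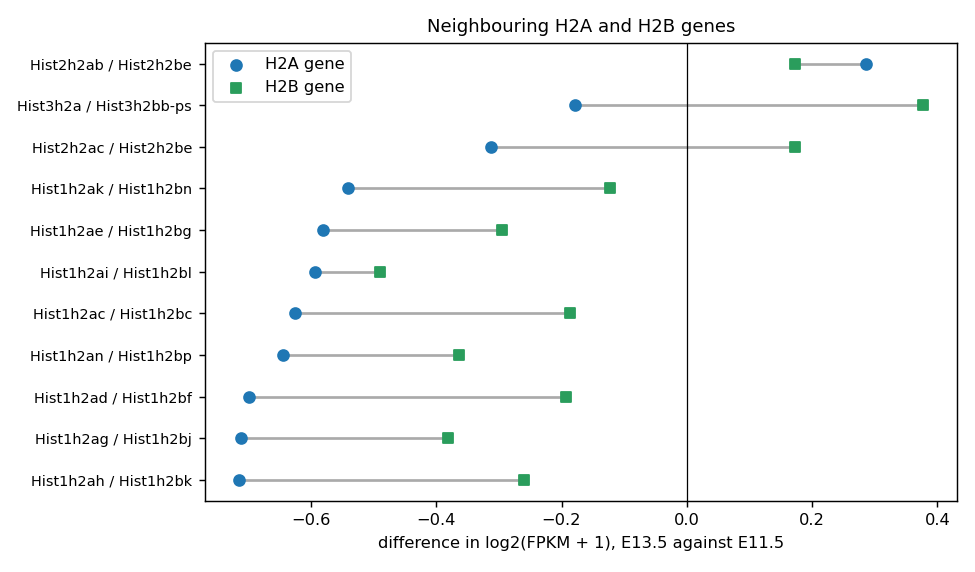
Difference in log2(FPKM + 1) from E11.5 to E13.5 (x) for nearby H2A genes (circles) and H2B genes (squares), 1 pair per row (y). The pair of Hist1h2aa, which was near 0, is left out. The circle lies left of the square in 10 rows, as for Hist1h2ad at -0.70 and Hist1h2bf at -0.19. It lies right of it for Hist2h2ab and Hist2h2be, which have Hist2h2ac between them.

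Promoters are shown for 4 members, an H2B pair with the octamer and an H4 pair of which 1 holds CCAAT and the other does not, because CCAAT was in fewer H4 windows than in those of the other classes. The lines give 160 bases up to the annotated start from RefSeq on GRCm38.p6: chr13:21721884-21722043 for Hist1h2bm, chr13:23571240-23571399 for the H2B gene Hist1h2bg, chr13:23581408-23581567 for Hist1h4d and chr13:21734874-21735033 for Hist1h4j, all on the plus strand. Capitals mark matches, on either strand, to the octamer ATTTGCAT, bound by Oct1 (the product of Pou2f1), to CCAAT, and to TATAAA.
Hist1h2bm: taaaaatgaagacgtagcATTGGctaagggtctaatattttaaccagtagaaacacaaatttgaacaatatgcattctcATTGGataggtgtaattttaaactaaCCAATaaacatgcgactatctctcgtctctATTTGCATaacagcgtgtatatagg
Hist1h2bg: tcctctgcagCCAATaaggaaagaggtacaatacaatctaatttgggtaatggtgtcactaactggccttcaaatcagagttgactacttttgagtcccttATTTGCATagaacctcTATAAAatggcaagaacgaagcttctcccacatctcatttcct
Hist1h4d: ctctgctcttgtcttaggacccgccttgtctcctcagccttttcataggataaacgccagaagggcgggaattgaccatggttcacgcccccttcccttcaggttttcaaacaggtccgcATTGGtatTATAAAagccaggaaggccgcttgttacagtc
Hist1h4j: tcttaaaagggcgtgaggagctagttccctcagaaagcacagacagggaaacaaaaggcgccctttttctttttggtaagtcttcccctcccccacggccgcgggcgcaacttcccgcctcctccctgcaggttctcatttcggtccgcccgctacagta
The 160 bases shown for Hist1h4j hold none of these letters, though its longer window of 300 bases holds TATAAA. RefSeq promoter windows of 300 bases were matched for 61 members (62 windows). The letters CCAAT were in all windows of H1, H2A, H2B and H3 genes and in 3 of 12 H4 windows, beside 37.4% of all 32851 windows. The octamer was in 7 of 18 H2A and 7 of 16 H2B windows and in none of H1, H3 or H4, beside 1.74% of all windows. TATAAA was in 56.5% of the members' windows, beside 13.6%. Within H2A the median E11.5 to E13.5 log2 difference was -0.48 for the 6 compared genes with the octamer and -0.59 for the 7 without. Within H2B it was -0.46 for 6 and -0.36 for 9. A match to these letters is not a bound site.

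The histone genes outside the clusters mostly encode variant histones, several of which are made outside S phase. The 11 genes listed summed to 1383, 980 and 813 FPKM, and 8 of 11 were lower at E13.5 than at E11.5 (median log2 difference -0.33), beside 42.6% of all genes. At E15.5, 8 of 11 were lower than at E13.5 (-0.31), beside 44.9%. H2afz, which encodes the variant H2A.Z, was the highest at 536, 283 and 256 FPKM. H2afy, which encodes macroH2A, had the largest decrease, at 47.4, 35.8 and 18.8 FPKM, and H1f0, a linker histone linked to cells leaving the cycle, the largest increase, at 83.1, 83.9 and 88.1 FPKM. The cluster genes held at E15.5 near their E13.5 sum, while the sum of this group was lower.

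Genes for making and ending histone mRNA were flatter. Of 14 listed, 13 were matched and summed to 100.2, 88.6 and 82.3 FPKM, with 9 of 12 compared genes lower at E13.5, beside 42.6% of all genes, and a median of -0.11. Slbp, which encodes the stem-loop binding protein, was at 21.4, 19.9 and 17.7 FPKM. Pou2f1 had the largest decrease, at 14.3, 7.77 and 6.46 FPKM. Lsm11, a subunit of the U7 particle that cuts histone mRNA, had the largest increase, at 1.33, 2.16 and 1.92 FPKM. The cluster genes' median of -0.38 in the first step lay below that of this group.

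Histone chaperones carry histones to DNA. The 14 genes summed to 973, 639 and 640 FPKM, and 11 of 14 were lower at E13.5 (median -0.30), beside 42.6% of all genes. Npm1, the highest, was at 664, 405 and 434 FPKM and made up most of each sum. From E13.5 to E15.5, where Npm1 was higher, 8 of 14 genes were lower (median -0.026), beside 44.9% of all genes. Nasp, a carrier of H1 and of H3 with H4, was at 113, 61.6 and 40.4 FPKM, the largest decrease, and Ipo4, an importin for H3 and H4, had the largest increase at 9.06, 10.5 and 17.7 FPKM.

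The 25 S phase genes summed to 441, 297 and 328 FPKM, with 24 of 25 lower at E13.5 (median -0.44), beside 42.6% of all genes. At E15.5, 15 of 25 were higher than at E13.5 (median 0.11), beside 55.1% of all genes, and 20 of 25 were lower than at E11.5, beside 44.4%. The summed level was highest at E11.5, and Ccne2 was among the 5 genes that were higher at E15.5 than at E11.5. Pcna, the sliding clamp of the replication fork, was at 51.6, 34.3 and 39.8 FPKM. Rrm2, a subunit of ribonucleotide reductase, had the largest decrease, at 42.6, 16.0 and 20.1 FPKM, and Ccne2, which encodes cyclin E2, the largest increase, at 1.71, 2.28 and 2.73 FPKM. The 15 mitosis genes summed to 379, 285 and 276 FPKM, with 13 of 15 lower at E13.5 (median -0.41), beside 42.6% of all genes. Among them Top2a was at 65.1, 48.8 and 42.0 FPKM, Bub1 at 14.2, 8.15 and 6.05, and Mki67, which encodes Ki-67, at 44.6, 45.9 and 45.0. In bulk samples fewer cycling cells and less histone RNA per cell cannot be told apart.

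**Figure D5:**
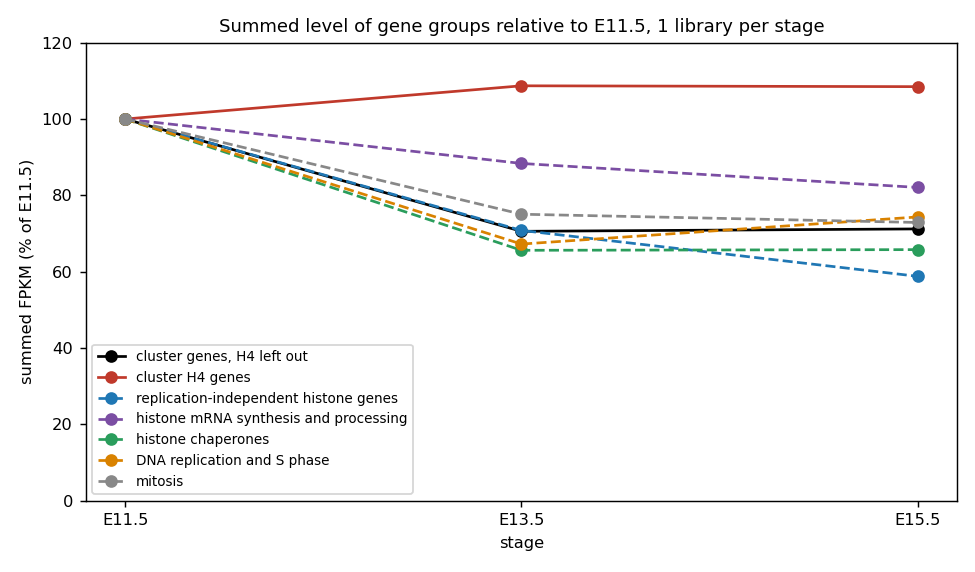
Summed FPKM as a percentage of the E11.5 value (y) at each stage (x) for the cluster genes without H4, the cluster H4 genes and 5 other gene groups, 1 library per stage. The cluster genes without H4 (1879, 1326 and 1338 FPKM) lie near the S phase, mitosis and chaperone groups, the last of these mostly Npm1. The histone genes outside the clusters end lowest. The H4 sum stays near its E11.5 level, and its sign at E15.5 turns when libraries are scaled to equal FPKM sums. Most of that sum is Hist1h4d, and 9 of 11 compared H4 genes were lower at E15.5 than at E11.5, beside 44.4% of all genes.

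The genes most like the summed level of the members were sought among 3058 genes with a mean of at least 10 FPKM, by the distance between their 3 mean-centred log2 values. The nearest 5 were 2310003F16Rik (41.0, 32.0 and 32.2 FPKM), Snrpd2 (57.9, 44.5 and 45.6), Ptbp1 (117, 91.0 and 92.8), Ruvbl1 (26.9, 20.2 and 20.5) and Mrpl23 (13.2, 9.91 and 10.2). With only 3 libraries many genes can share such a pattern.

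The 5 markers of the sorted population moved in different directions: Scx was at 375, 410 and 213 FPKM, Sox9 at 56.2, 41.0 and 22.5, Mkx at 1.44, 15.1 and 13.2, Tnmd at 0, 7.57 and 56.8, and Col1a1 at 16.6, 215 and 1322. Markers of other cell types moved with stage as well. The 7 muscle markers summed to 12.1, 63.7 and 221 FPKM, the 6 blood markers to 10.4, 20.9 and 88.3, the 4 endothelium markers to 0.80, 2.13 and 5.89, and the 5 epidermis markers to 1.19, 4.10 and 8.21. Most of the E15.5 sum was Actc1 (164 FPKM) in muscle and Beta-s (67.4 FPKM) in blood. From E11.5 to E15.5, 6 of 7 muscle markers and 3 of 6 blood markers were higher, beside 55.6% of all genes. Myf5 was near level, while Hbb-y, Hba-x and Alas2 were lower. Epcam, in epidermis, was highest at E13.5 (0.99, 2.99 and 1.52 FPKM). The 4 leukocyte markers summed to 1.66, 0.67 and 1.38 FPKM, with Ptprc and Tyrobp at 0 at E11.5, and the 4 nerve markers to 2.54, 1.98 and 1.61. The part of these shifts in the histone values was not tested.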

How the data were processed

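Per the labels' protocols, a BD FACSAria II sort gave the GFP-positive cells, which were frozen before RNA extraction (RNeasy micro kit) and amplification to cDNA (NuGEN Ovation RNA-Seq v2). The submitters' processing notes name TopHat 1.4.1, Bowtie 0.12.7 and mm9. The sources used here do not say how reads matching several genes were handled, or which strand setting and annotation release applied. The deposited FPKM values, made by the authors, are 1 per RefSeq transcript (28107 rows) with a status of each estimate per the file headers. The deposited coverage column is a signal, the mean read depth of a transcript, and was used only to estimate read numbers, at 43 covered bases per read.

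FPKM was summed by symbol (75 rows for the 67 members). Changes are differences in log2(FPKM + 1), a scale that understates changes of low genes. Genes entered if status was OK and the mean reached 1 FPKM. All genes were processed alike, and only members are described. Of the steps, only the calculation of changes between stages was tested on simulated data. That simulation held counting error but no reads shared between genes, and its planted changes were larger than the members' medians. Python 3.11.15, pandas 2.3.3 and Biopython 1.88 were used.

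The members and gene lists were chosen with earlier results of these data known. Named in each class were the 2 highest genes and the largest increase and decrease from E11.5 to E15.5, and in each list the highest, the largest increase and the largest decrease. Another pseudocount, filters, scalings, transcript rows and statuses were tried. In the blood list, 1 marker is not reported here.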

Additional observations from a re-analysis of the deposited data

How the results depend on the processing

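Single libraries leave no estimate of the spread between samples, so leaving out a replicate could not be done. No paired analysis was possible because each stage has 1 library. Of 90 alternative values, 64 stayed within the tolerance set for them (counting error, or 1.5 times for a count). Depth limits the values of low genes, and the division of shared reads those of near-identical genes.

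The count of members past 2-fold in either direction was 0 in E13.5 against E11.5 when a mean of at least 5 FPKM was required. It was also 0 in E15.5 against E13.5. Beside these, 0.745% and 0.728% of all genes were lower by 2-fold, and 6.6% and 3.71% were higher. For E15.5 against E13.5 the count was 1 (Hist3h2ba) with FPKM sums made equal (1.27% of all genes lower, 2.59% higher). It was the same gene with size factors (0.732% lower, 3.5% higher). For E15.5 against E11.5 the count was 3 (Hist1h2ac, Hist1h3e and Hist1h3f) with a pseudocount of 0.1 FPKM (3.94% of all genes lower, 16.8% higher). With equal FPKM sums it was 5 (3.31% lower, 10.7% higher), in place of 1. Equal FPKM sums moved the members' median to -0.22 for E15.5 against E13.5 and to -0.50 for E15.5 against E11.5, and that of all genes to -0.13 and -0.062. A pseudocount of 0.1 moved the median of Hist4 to -0.92 and -0.81 for E13.5 and E15.5 against E11.5, and that of Hist3 to -0.86 and -0.57 for E15.5 against E13.5 and E11.5; these rest on 1 and 2 genes.

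The following alternatives for summed levels were chosen after seeing the data. The log2 difference of the members' sum, -0.36 for E13.5 against E11.5, became -0.32 with equal FPKM sums, -0.41 with size factors and -0.42 without the 3 highest members. For E15.5 against E13.5, where it was 0.0086, equal FPKM sums made it -0.20. For E15.5 against E11.5, where it was -0.35, it became -0.52, -0.41 and -0.41 under the same 3 settings in the same order. The H4 sum kept its sign for E13.5 against E11.5 except without Hist1h4d and Hist2h4 (-0.10). For E15.5 against E13.5 it became -0.21 with equal FPKM sums and -0.19 without both genes. For E15.5 against E11.5, where it was 0.12, it became -0.049 with equal FPKM sums, 0.060 with size factors, 0.037 without Hist1h4d and -0.29 without both genes. The cause was not tested for the scalings; leaving out genes acts through the genes left out.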
